A study of Saccharomyces cerevisiae with 12 samples.

Results

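The transcripts described here come from 10 genes of Saccharomyces cerevisiae known as targets of the transcription factor Pho4 in phosphate starvation: PHO84 (YML123C), PHO89 (YBR296C), PHO5 (YBR093C), PHO8 (YDR481C), PHO81 (YGR233C), SPL2 (YHR136C), PHM6 (YDR281C), PHM7 (YOL084W), PHM8 (YER037W) and VTC3 (YPL019C). They were chosen by gene name, with earlier results of the same arrays known, and the rule takes the brightest probe set of a gene over the 12 arrays. All 10 genes had exactly 1 probe set, so brightness decided nothing, and the 10 probe sets are part of 5716 on the array, 5498 of them paired with 1 gene and together covering 5449 genes. The falls of PHO84 and SPL2 in YSBN2 were among the results already known, so comparisons of these genes that use YSBN2 arrays are given as descriptions with no p-value.

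The arrays measured total RNA of 2 prototrophic strains in 2 aerobic cultures, with 3 biological replicates and 1 array each in every group. CEN.PK 113-7D is of mating type a, and YSBN2 is an FY strain whose genotype is given as ho::Ble/ho::HphMX4, 2 disrupted alleles of the mating-type switching gene HO. Batch cultures began with 30 g/L glucose, and glucose-limited chemostats received a feed of 7.5 g/L glucose with 0.3 g/L ethanol and were diluted at 0.1 per h. All 4 groups (CEN.PK 113-7D batch, CEN.PK 113-7D chemostat, YSBN2 batch and YSBN2 chemostat) grew at 30 °C and pH 5.0 in 4 L reactors. Each strain is a single strain, so any difference between the strains covers everything that differs between their genomes. The phosphate content of the medium is not given in the sources used here, and no group was starved of phosphate by label.

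In budding yeast, Pho4 works with Pho2 to switch on genes for taking up and saving inorganic phosphate. When phosphate is plentiful the cyclin-dependent kinase complex Pho80-Pho85 phosphorylates Pho4, which then leaves the nucleus. When phosphate runs short the inhibitor Pho81 blocks that kinase, and Pho4 activates transporters, secreted and vacuolar phosphatases, and enzymes that store phosphate as polyphosphate in the vacuole.

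Levels are log2 signals, and a difference of 1 is a doubling of the signal. Values ran from 1.69 to 16.2, and array medians from 11.02 to 11.37. On each array 6.37% to 9.8% of signals were below 4, near a floor at which a transcript cannot be told from none. HO, checked against the strain labels, read 11.46 to 12.62 in the CEN.PK 113-7D arrays and at most 2.39 in all 6 YSBN2 arrays. HXT1, a low-affinity glucose transporter gene, read at least 12.83 in every batch array and at most 3.33 in every chemostat array. ADH2, the glucose-repressed alcohol dehydrogenase gene, read at most 6.55 in batch and at least 16.06 in the chemostats. The YSBN2 batch arrays were the least alike within a group, with a lowest correlation of 0.961, and the third stood apart: 196 of its probe sets lay 2 or more from the mean of the other arrays of its group, against 2 to 77 for the 11 others. HXT2, a glucose transporter gene, read 4.26, 4.21 and 14.04 in these 3 arrays. Results that rest on YSBN2 batch are therefore given with and without that array where it changes them.

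The 10 genes did not move as 1 group. In a grouping made after the values were seen, PHO84, SPL2, PHM6, VTC3, PHO8 and PHO81 had their highest mean in YSBN2 batch. PHO89, PHM7 and PHM8 were high in the chemostats of both strains, and PHO5 was high in YSBN2 in either culture. The YSBN2 means of PHO5 were nearly equal, at 9.30 in batch and 9.29 in the chemostat. PHO81 is a border case, since its YSBN2 cultures overlapped as those of PHO5 did. A shared label of Pho4 targets thus covers at least 3 different patterns in these data. SPL2 was at the floor in every group except YSBN2 batch, and PHO84 was at or near it in CEN.PK 113-7D batch and YSBN2 chemostat. Each level is an average over a culture, so a change in all cells and a change in the share of cells that carry the transcript cannot be told apart.

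**Figure D1:**
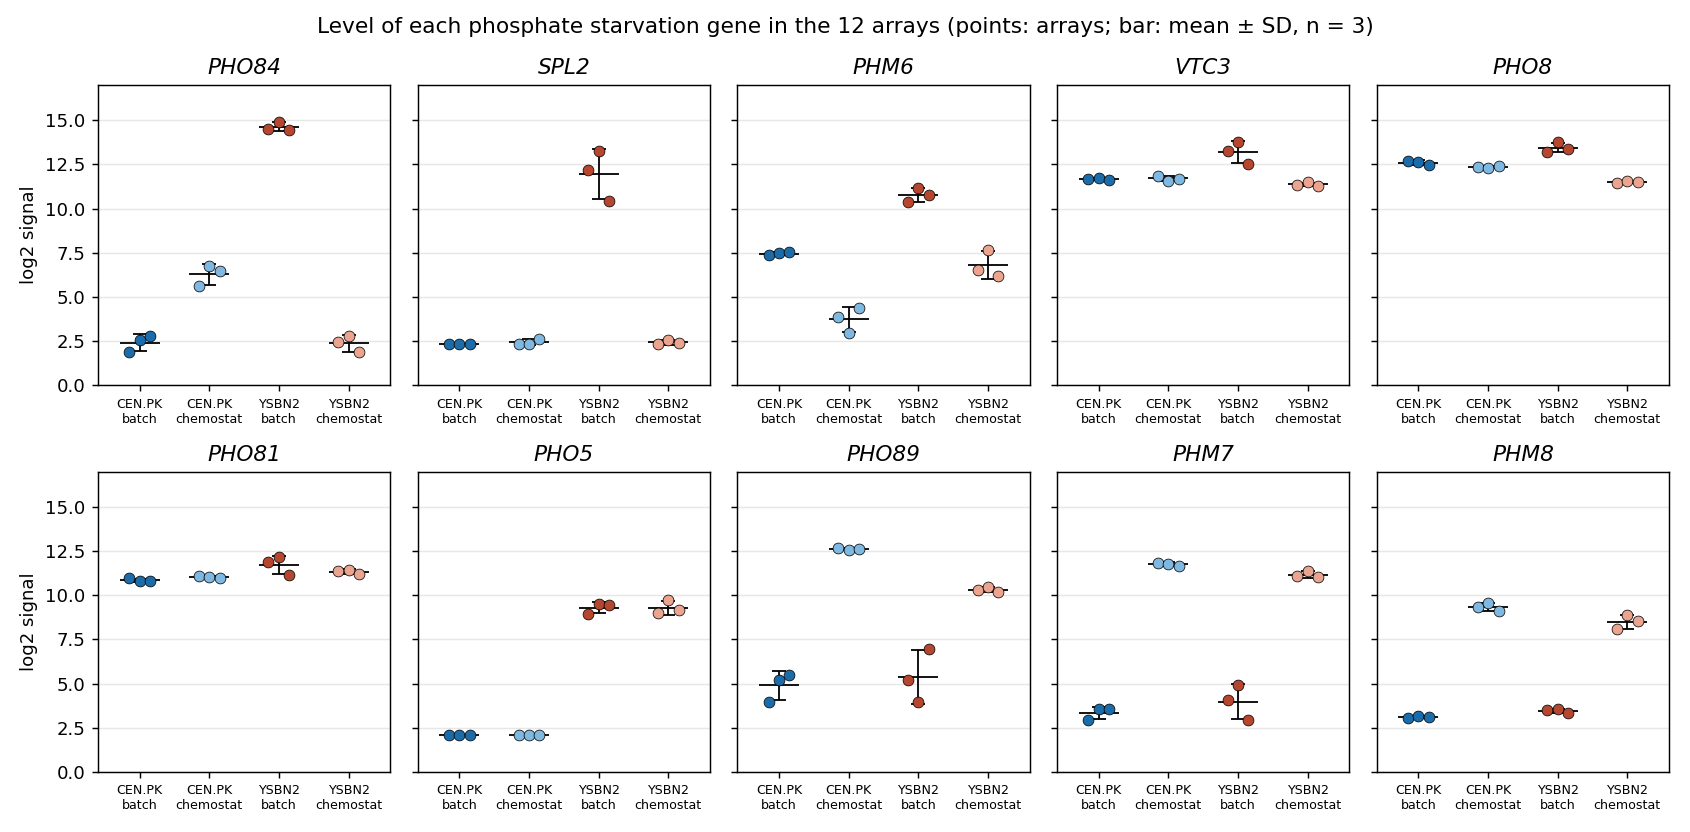
Log2 signal (vertical axis) of the 10 genes in the 4 groups (horizontal axis); points are arrays, and the bar with whiskers is the mean ± SD of 3 arrays. PHO84 and SPL2 stand high in YSBN2 batch alone, PHO89, PHM7 and PHM8 in both chemostat groups, and PHO5 in both YSBN2 groups.

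The transporter genes followed different patterns. PHO84 encodes the high-affinity proton-coupled phosphate transporter of the plasma membrane. Its level in CEN.PK 113-7D was 1.86, 2.53 and 2.78 for batch and 5.61, 6.75 and 6.46 for the chemostat. YSBN2 gave 14.48, 14.92 and 14.46 for batch and 2.43, 2.78 and 1.85 for the chemostat. No array of YSBN2 batch overlapped with any other group, CEN.PK 113-7D chemostat came next, and YSBN2 chemostat overlapped with CEN.PK 113-7D batch near the floor. PHO84 thus ran in opposite directions with culture: it was 3.89 ± 0.35 (SE, n = 3 per group) higher in the chemostat of CEN.PK 113-7D (limma, adjusted p = 1.3e-05) and lower in that of YSBN2 (difference -12.27).

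Because all CEN.PK 113-7D batch values lay at the floor, the size of that rise is uncertain. A floor set at 6 left a rise of 0.41 with an adjusted p of 0.087 by limma, so the call was lost. The YSBN2 difference was then -8.62. The strain difference of PHO84 in batch, 12.23 on the deposited values, also rests on the floor in CEN.PK 113-7D, and it was 8.62 with values under 6 raised. The difference between the culture effects of the strains was -16.15 ± 0.50 on the deposited values and -9.03 with values under 6 raised.

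PHO89, which encodes a sodium-coupled phosphate transporter known to work at alkaline pH, followed culture in both strains. Its level was 3.94, 5.22 and 5.50 in CEN.PK 113-7D batch and 12.69, 12.56 and 12.61 in the chemostat. YSBN2 gave 5.19, 3.94 and 6.98 for batch and 10.28, 10.48 and 10.21 for the chemostat. The chemostat arrays stood above all batch arrays, and the batch arrays of the strains overlapped. PHO89 rose in the chemostat by 7.73 ± 0.66 in CEN.PK 113-7D (limma, adjusted p = 8.2e-06) and by 4.95 ± 0.66 in YSBN2 (limma, adjusted p = 1.9e-04). The batch values lay low, and once those under 6 were raised to 6 the rises were 6.62 and 4.00. Without the third YSBN2 batch array the rise in YSBN2 was 5.76. In the chemostat it was lower in YSBN2 (-2.30 ± 0.66, limma, adjusted p = 0.029), without overlap between the arrays. That call was lost when any 1 of the 6 chemostat arrays was left out, with adjusted p-values of 0.065 to 0.075 and differences of -2.37 to -2.24. The culture effects of the strains differed by -2.78 ± 0.93, which did not pass the test (limma, adjusted p = 0.079), but passed with values under 6 raised to 6 (-2.62, adjusted p = 9.4e-04) and without the second YSBN2 batch array (-3.49, adjusted p = 0.019). Without the third YSBN2 batch array this difference was -1.97 with an adjusted p of 0.05, the smallest in size when each array was left out in turn.

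Both transporters were thus low in CEN.PK 113-7D batch, and in YSBN2 they were high in opposite cultures. PHO84 was near the floor in the YSBN2 chemostat, where PHO89 read above 10 in each array.

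The phosphatases showed 3 patterns. PHO5 encodes the main secreted acid phosphatase, the classic reporter of the pathway. It lay at the floor in all 6 CEN.PK 113-7D arrays, at 2.06 to 2.09. YSBN2 gave levels of 8.93, 9.50 and 9.47 for batch and of 8.98, 9.75 and 9.15 for the chemostat, so the strains were far apart and the cultures overlapped. PHO5 was 7.22 ± 0.20 higher in YSBN2 in batch (limma, adjusted p = 1.0e-08) and 7.22 ± 0.20 higher in the chemostat (limma, adjusted p = 1.7e-08). These differences were 3.30 and 3.29 once values under 6 were raised to 6. Culture made no difference that passed the test in either strain, and the YSBN2 means were 9.30 ± 0.32 in batch and 9.29 ± 0.40 in the chemostat (SD, n = 3). Quantile normalization gave a fall of PHO5 in the YSBN2 chemostat (-0.54, limma, adjusted p = 0.018). Whether the PHO5 probe set reads the CEN.PK 113-7D copy of the gene was not tested. In the RefSeq table of assembly R64, PHO5 lies beside PHO3, which encodes a related acid phosphatase.

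PHO8 encodes the vacuolar alkaline phosphatase and was well above the floor in every array. Its level was 12.68, 12.66 and 12.44 in CEN.PK 113-7D batch, 12.32, 12.29 and 12.43 in CEN.PK 113-7D chemostat, 13.23, 13.76 and 13.37 in YSBN2 batch and 11.42, 11.58 and 11.50 in YSBN2 chemostat. The YSBN2 groups lay above and below both CEN.PK 113-7D groups, and no arrays of neighbouring groups overlapped. In the YSBN2 chemostat PHO8 fell by 1.95 ± 0.13 (limma, adjusted p = 2.0e-06), and the culture difference in CEN.PK 113-7D was -0.24 ± 0.13 (limma, adjusted p = 0.14). The latter passed the test as a fall when arrays were set to a common median (-0.53, adjusted p = 0.011) or quantile normalized (-0.42, adjusted p = 0.02), as well as without the second YSBN2 batch array (adjusted p = 0.044). The culture effects differed between the strains by -1.71 ± 0.18 (limma, adjusted p = 3.4e-04). YSBN2 was higher than CEN.PK 113-7D in batch by 0.86 ± 0.13 (limma, adjusted p = 0.001) and lower in the chemostat (-0.85 ± 0.13, limma, adjusted p = 0.0015).

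PHM8 encodes a phosphatase known to act on lysophosphatidic acid and on nucleotides. It read 3.05, 3.13 and 3.13 in CEN.PK 113-7D batch and 3.51, 3.53 and 3.34 in YSBN2 batch, close to the floor. In the chemostat it read 9.31, 9.54 and 9.10 in CEN.PK 113-7D and 8.09, 8.87 and 8.56 in YSBN2, with all 4 groups free of overlap. PHM8 rose in the chemostat by 6.22 ± 0.18 in CEN.PK 113-7D (limma, adjusted p = 3.7e-09) and by 5.04 ± 0.18 in YSBN2 (limma, adjusted p = 2.5e-08). The rises were 3.32 and 2.51 once values under 6 were raised to 6. In the chemostat it was lower in YSBN2 (-0.81 ± 0.18, limma, adjusted p = 0.0092), and its culture effects differed by -1.17 ± 0.25 (limma, adjusted p = 0.014). The last difference did not pass with values under 6 raised to 6 (-0.81, adjusted p = 0.058), after quantile normalization (-0.87, adjusted p = 0.12) or with a trend and robust setting of eBayes (adjusted p = 0.054).

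The regulators were both highest in YSBN2 batch, over very different ranges. SPL2 encodes a small protein that down-regulates low-affinity phosphate uptake. It read 12.18, 13.27 and 10.44 in YSBN2 batch and between 2.32 and 2.62 in the 9 other arrays, all of them at the floor. The YSBN2 batch arrays were far above the rest, and they spread more widely among themselves than those of the other genes high in this group. The difference between cultures in YSBN2 was -9.54 ± 0.55, and it was -10.30 without the third YSBN2 batch array and -5.96 with values under 6 raised to 6. In CEN.PK 113-7D the culture difference of SPL2 was 0.10 ± 0.55 (limma, adjusted p = 0.92), which says nothing of the transcript, since both groups were at the floor. The strain difference of SPL2 in batch was 9.63 on the deposited values and 5.96 with values under 6 raised.

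PHO81, the kinase inhibitor that releases Pho4, moved little. It read 10.96, 10.79 and 10.79 in CEN.PK 113-7D batch, 11.09, 11.06 and 10.96 in CEN.PK 113-7D chemostat, 11.86, 12.17 and 11.14 in YSBN2 batch and 11.36, 11.45 and 11.18 in YSBN2 chemostat. The YSBN2 arrays lay above all CEN.PK 113-7D arrays, and the cultures of YSBN2 overlapped through the third batch array. PHO81 was higher in YSBN2 batch than in CEN.PK 113-7D batch by 0.88 ± 0.22 (limma, adjusted p = 0.014), a call lost without the first YSBN2 batch array (0.81, adjusted p = 0.052) and in a fit of only these 6 arrays (adjusted p = 0.093). The culture difference in YSBN2 was -0.39 ± 0.22 (limma, adjusted p = 0.16). Without the third YSBN2 batch array it was -0.69 and passed (adjusted p = 0.0011), as did the difference of culture effects between the strains (-0.88, adjusted p = 0.0047, against -0.58 and 0.24 with all arrays).

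VTC3 encodes a subunit of the vacuolar transporter chaperone complex, which makes polyphosphate. Its level was 11.68, 11.71 and 11.61 in CEN.PK 113-7D batch, 11.87, 11.56 and 11.70 in CEN.PK 113-7D chemostat, 13.25, 13.77 and 12.52 in YSBN2 batch and 11.32, 11.49 and 11.29 in YSBN2 chemostat. The YSBN2 batch arrays lay above all others, the YSBN2 chemostat arrays lay below all others, and the CEN.PK 113-7D cultures overlapped. In the YSBN2 chemostat VTC3 fell by 1.81 ± 0.25 (limma, adjusted p = 2.5e-04), while in CEN.PK 113-7D the difference was 0.04 ± 0.25 (adjusted p = 0.93). The difference between these effects, -1.85 ± 0.36, passed the test (limma, adjusted p = 0.0081). In batch VTC3 was 1.52 ± 0.25 higher in YSBN2 (limma, adjusted p = 0.0018).

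PHM6 and PHM7 encode proteins of unknown function that were found through their response to low phosphate. PHM6 read 7.36, 7.46 and 7.52 in CEN.PK 113-7D batch and 3.84, 2.96 and 4.38 in CEN.PK 113-7D chemostat. YSBN2 gave 10.34, 11.19 and 10.77 for batch and 6.51, 7.67 and 6.19 for the chemostat. Each strain was higher in batch, and CEN.PK 113-7D batch overlapped with YSBN2 chemostat. On the deposited values PHM6 was the only one of the 10 genes called lower in the chemostat of both strains, with differences of -3.72 ± 0.43 in CEN.PK 113-7D (limma, adjusted p = 6.8e-05) and -3.98 ± 0.43 in YSBN2 (limma, adjusted p = 5.3e-05), with PHO8 joining it under the other scalings named above. It was higher in YSBN2 by 3.32 ± 0.43 in batch (limma, adjusted p = 4.5e-04) and by 3.06 ± 0.43 in the chemostat (limma, adjusted p = 9.4e-04). The values in the CEN.PK 113-7D chemostat lay near the floor. With values under 6 raised to 6 the culture difference in CEN.PK 113-7D was -1.45 (adjusted p = 0.0069), the strain difference in the chemostat was 0.79 and lost its call (adjusted p = 0.13), and the difference between the culture effects went from -0.26 ± 0.61 (adjusted p = 0.85) to -2.53 (adjusted p = 0.0091).

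PHM7 ran the other way. It read 2.92, 3.54 and 3.53 in CEN.PK 113-7D batch and 4.05, 4.90 and 2.93 in YSBN2 batch, with overlap between the strains. In the chemostat it read 11.85, 11.77 and 11.66 in CEN.PK 113-7D and 11.11, 11.39 and 11.01 in YSBN2, far above every batch array. PHM7 rose by 8.43 ± 0.41 in CEN.PK 113-7D (limma, adjusted p = 1.5e-07) and by 7.21 ± 0.41 in YSBN2 (limma, adjusted p = 6.5e-07), or by 5.76 and 5.17 once values under 6 were raised to 6. No strain difference passed the test (0.63 ± 0.41 in batch, adjusted p = 0.29, and -0.59 ± 0.41 in the chemostat, adjusted p = 0.32). The difference in batch passed without the third YSBN2 batch array (1.15, adjusted p = 0.0086), as did the difference of effects (-1.74, adjusted p = 0.0098, against -1.22 ± 0.58 and 0.2 with all arrays). The chemostat difference passed in a fit of only those 6 arrays (adjusted p = 0.017) and with values under 6 raised to 6 (adjusted p = 0.0013).

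**Figure D2:**
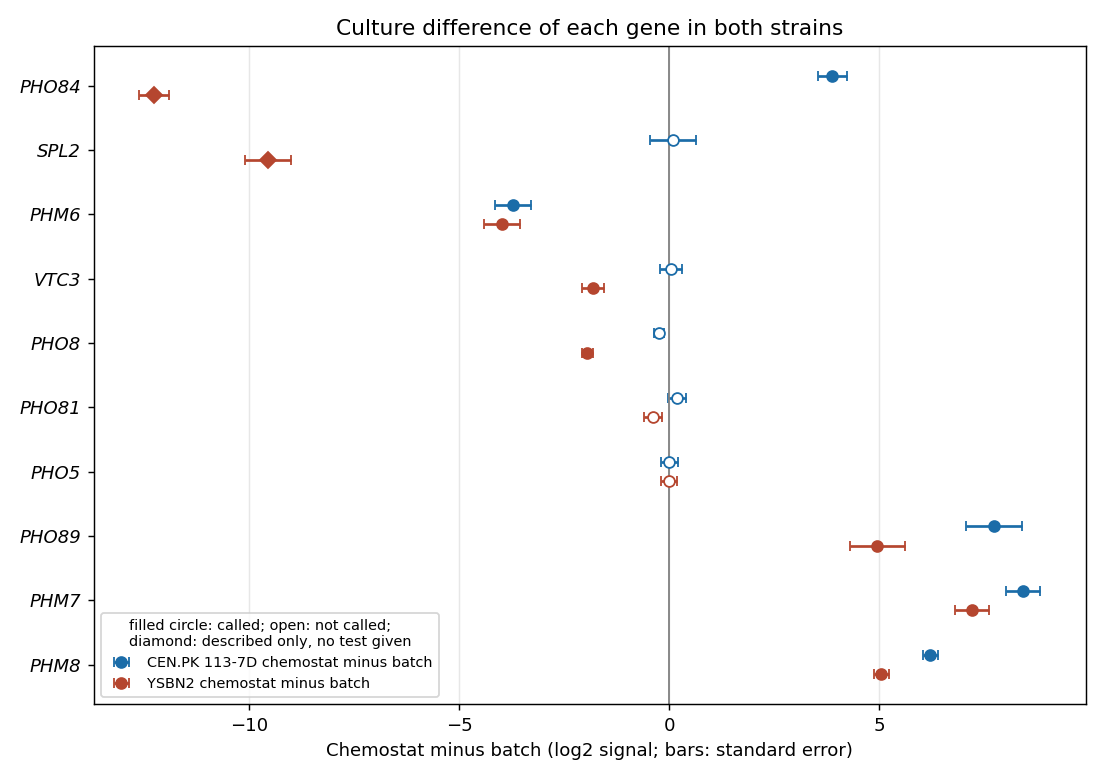
Chemostat minus batch difference in log2 signal (horizontal axis) of the 10 genes in CEN.PK 113-7D (blue) and YSBN2 (red), with limma's standard error as bars, filled circles for differences past the test and diamonds for those given without one. PHO84 lies on opposite sides of 0 in the strains (3.89 and -12.27), and PHM6 lies at nearly the same place in both (-3.72 and -3.98). These are deposited values, and with values under 6 raised to 6 the differences were 0.41 and -8.62 for PHO84 and -1.45 and -3.98 for PHM6.

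Counted over the 10 genes, culture in CEN.PK 113-7D gave 4 rises (PHO84, PHO89, PHM8 and PHM7) and 1 fall (PHM6). Among all probe sets of that comparison 56.1% passed the test, 33.9% higher and 22.2% lower, so the share among these genes was near the background. Their median difference was 0.14, beside 0.09 for all probe sets. In YSBN2, culture gave 3 rises (PHO89, PHM8 and PHM7) and 5 falls (PHO84, PHO8, SPL2, VTC3 and PHM6). There 52.6% of all probe sets passed, 30.6% higher and 21.9% lower, and the medians were -1.10 and 0.06. PHO84 and SPL2, whose falls were known when the genes were listed, are among the 5, so nothing is read from that count.

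Between the strains in batch, 7 of the 10 genes were called higher in YSBN2 and 0 lower by limma, at an adjusted p under 0.05. Of all probe sets 29.1% passed, 18.5% higher and 10.5% lower, with medians of 1.20 for the genes and 0.02 for all. The 3 genes that did not pass were PHO89, PHM8 and PHM7, those that rose in both chemostats. PHO84 and SPL2, whose levels in YSBN2 were known, are among the 7, so nothing is read from that count or median. In the chemostat 2 genes were higher in YSBN2 (PHO5 and PHM6) and 4 lower (PHO84, PHO89, PHO8 and PHM8). Of all probe sets 28.2% were called, 12.9% higher and 15.3% lower, and the medians were -0.47 and -0.01. PHO84, whose levels in YSBN2 were known, is among the 4, so nothing is read from that count. Its difference of -3.92 on the deposited values was -0.41 with values under 6 raised to 6. The culture effect was more negative in YSBN2 for 5 genes (PHO84, PHO8, PHM8, SPL2 and VTC3) and more positive for 0. Again PHO84 and SPL2 are among the 5, so nothing is read from that count. Among all probe sets 15.4% passed this test, 4.34% in the positive and 11.1% in the negative direction, with medians of -1.47 and -0.05. These comparisons share arrays, so the counts are not independent of each other. Without the third YSBN2 batch array the counts were 9 for culture in YSBN2, 8 for strain in batch and 7 for the difference of effects. The share of all probe sets called was not counted in that fit, so nothing is read from these counts.

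The 3 YSBN2 batch arrays differed among themselves in a way that several of the genes shared. After the values were seen, the array of replicate 2 was found to be the highest in 9 of the 10 genes, all except PHO89, while it was the highest in 18.2% of all probe sets. Replicate 3 was the lowest in 6 of the 10 genes, beside 46.1% of all probe sets. The order replicate 2, then 1, then 3 held for 6 genes (PHO84, PHM8, PHO81, SPL2, VTC3 and PHM7) and for 15.2% of all probe sets. The spread was wide for SPL2, from 10.44 to 13.27, and narrow for PHM8, from 3.34 to 3.53, which lay near the floor in this group. PHM7 was low there too, from 2.93 to 4.90, and replicates 1 and 3 of PHO84 were nearly equal (14.485 and 14.462). Of the 23 other phosphate genes described below, 10 held that order and 13 had replicate 2 highest. Among them PHO11, which encodes another secreted acid phosphatase, read 12.01, 12.64 and 10.73, while PHO3 had replicate 3 highest. The part that the third array, which stood apart over the whole array, has in this order was not tested.

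**Figure D3:**
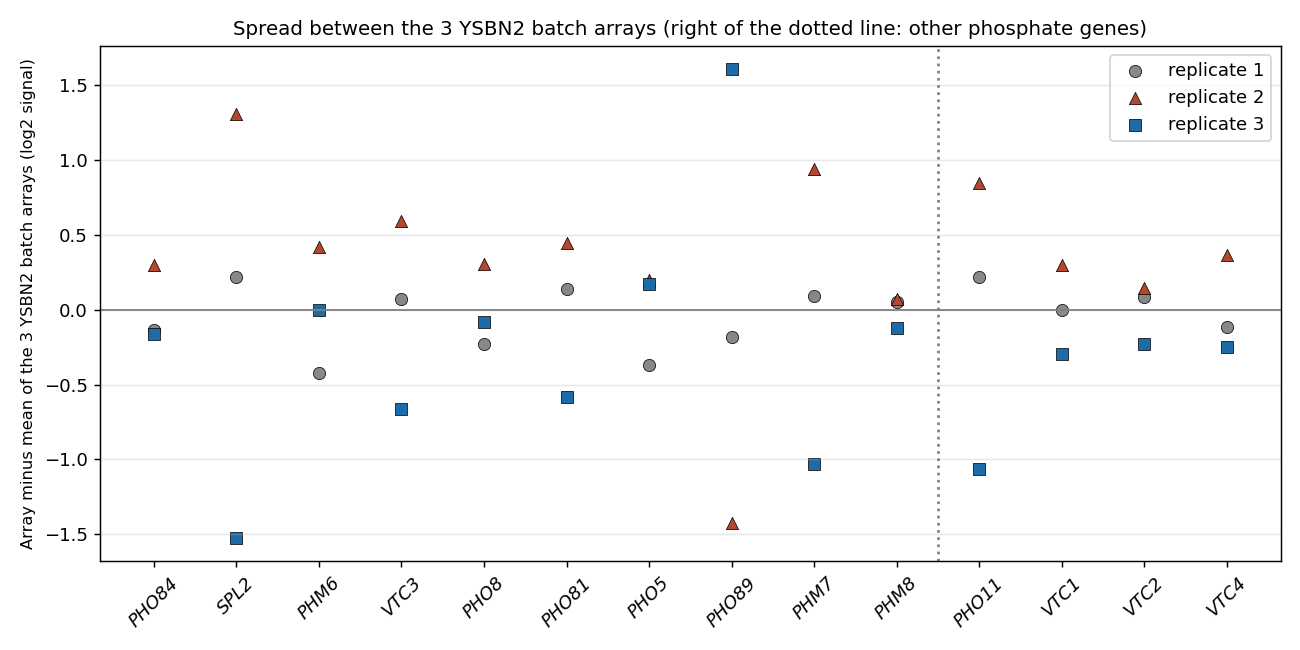
Deviation of each YSBN2 batch array from the mean of the 3 arrays (vertical axis, log2 signal) for the 10 genes and, right of the dotted line, 4 other phosphate genes. Replicate 2 (triangles) is highest in 9 of the 10 genes, and PHO89 has replicate 3 (squares) highest. The 4 others (PHO11, VTC1, VTC2 and VTC4) are among the 10 of 23 other phosphate genes with the order replicate 2, then 1, then 3.

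The likeness of other genes to PHO84 was measured by Pearson's r over the 12 arrays, as a description, since 3 high arrays of 1 group carry most of it. Among the 10 genes, r to PHO84 was 0.94 for SPL2, 0.90 for VTC3, 0.81 for PHO8, 0.66 for PHO81, 0.60 for PHM6 and 0.42 for PHO5. It was negative for PHO89 (-0.28), PHM8 (-0.35) and PHM7 (-0.35). The 5 other named genes with the highest r were DAL5 (0.95), an allantoate permease gene, YHI9 (0.95), APE1 (0.95), a vacuolar aminopeptidase gene, PUF4 (0.95), an RNA-binding protein gene, and FCY21 (0.94), a gene of the purine and cytosine permease family. With values under 6 raised to 6, only DAL5 and YHI9 stayed among the top 5.

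Of 26 other phosphate genes listed, 23 had a probe set, and PHO12, VTC5 and PPN2 had none listed. In batch 8 of the 23 were higher in YSBN2 and 0 lower by limma, beside 18.5% and 10.5% of all probe sets, with a median of 0.23. They were PHO3, PHO11, VTC1, VTC2, VTC4, GDE1, KCS1 and VIP1. In a fit of only those 6 arrays with a replicate block, PHO3 and KCS1 alone of the 8 kept their calls. In the chemostat 1 was higher (KCS1) and 3 lower (PHO86, GIT1 and DDP1), beside 12.9% and 15.3% of all probe sets. The PHO86 call (limma, adjusted p = 0.025) was not checked under other scalings or with arrays left out. GIT1 had all its levels near the floor, and its difference was 0 with values under 6 raised to 6. The DDP1 call (adjusted p = 0.049) was lost at a common array median (adjusted p = 0.097), after quantile normalization (adjusted p = 0.085) and without any 1 of the 6 chemostat arrays (up to 0.15). Culture gave 7 rises and 7 falls in CEN.PK 113-7D (median 0.10), where 56.1% of all probe sets were called, so the share was near the background. Among the 7 rises, PHO3 (adjusted p = 0.39), PHO86 (0.27), KCS1 (0.057) and GIT1 (0.56) lost their calls by limma after quantile normalization. The PHO2 rise was not checked in this way. In YSBN2 culture gave 3 rises and 11 falls (median -0.29), where 52.6% were called. Without the third YSBN2 batch array the PHO86 fall was no longer called (limma, adjusted p = 0.071). The culture effect was more negative in YSBN2 for 7 genes and more positive for 0 (median -0.35), beside 11.1% and 4.34% of all probe sets. The 7 were PHO86, PHO3, PHO11, VTC2, VTC4, GIT1 and GDE1, with GIT1 near the floor. By limma after quantile normalization, PHO86 (adjusted p = 0.052), PHO3 (adjusted p = 0.18) and VTC2 (adjusted p = 0.12) lost this call. These calls were also lost when some single arrays were left out. For GIT1 and GDE1 (limma, adjusted p = 0.034 each) this difference was not checked under other scalings or with arrays left out.

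The partners of VTC3 in the polyphosphate complex went the same way in batch. VTC1 was higher in YSBN2 by 0.63 ± 0.14 (limma, adjusted p = 0.0078), VTC2 by 0.83 ± 0.10 (limma, adjusted p = 3.3e-04) and VTC4, the catalytic subunit, by 0.93 ± 0.14 (limma, adjusted p = 9.6e-04). The VTC1 call was lost in a fit of only these 6 arrays (adjusted p = 0.062), and with a replicate block added to that fit the adjusted p-values were 0.11, 0.054 and 0.057. All of them fell in the YSBN2 chemostat, with differences of -1.15, -0.64 and -1.32 in that order. Of these only VTC1 also fell in CEN.PK 113-7D (-0.91 ± 0.14, limma, adjusted p = 3.6e-04). The difference of culture effects passed for VTC4 (-1.08 ± 0.19, adjusted p = 0.0058) and for VTC2 (-0.56 ± 0.15, adjusted p = 0.03), the latter call being lost at a common array median (adjusted p = 0.18) and when any 1 of 9 of the 12 arrays was left out.

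PHO11 resembled VTC3 and SPL2 in its pattern. It was 2.25 ± 0.39 higher in YSBN2 batch (limma, adjusted p = 0.0021, or 0.089 in a fit of only these 6 arrays with a replicate block), fell by 2.16 ± 0.39 when YSBN2 went from batch to chemostat (adjusted p = 0.0012), and had a difference of effects of -2.59 ± 0.55 (adjusted p = 0.012). Its probe set may also read the near-identical PHO12. PHO3, the neighbour of PHO5, was not at the floor in CEN.PK 113-7D: its batch levels were 4.58, 6.01 and 6.57 and its chemostat levels 8.38, 7.87 and 8.64. In YSBN2 the PHO3 batch levels were 8.57, 8.56 and 10.42 and the chemostat levels 8.63, 9.21 and 8.87, so it was 3.46 ± 0.59 higher than in CEN.PK 113-7D batch (limma, adjusted p = 0.0021). The rise of PHO3 in CEN.PK 113-7D, 2.58 ± 0.59 (adjusted p = 0.0046), was lost after quantile normalization (0.51, adjusted p = 0.39).

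Among the regulators other than PHO81, neither PHO2, PHO4, PHO80 nor PHO85 showed a strain difference that passed. PHO4 itself was 0.13 ± 0.26 higher in YSBN2 in batch (limma, adjusted p = 0.78), and its level was lower in the chemostat of CEN.PK 113-7D (-1.06 ± 0.26, adjusted p = 0.0065) and of YSBN2 (-1.69 ± 0.26, adjusted p = 4.6e-04). For PHO80 and PHO85, which encode the cyclin and the kinase, neither strain nor culture gave a difference that passed. The low-affinity transporter genes PHO90 and PHO91 fell in both chemostats, with differences in CEN.PK 113-7D and YSBN2 of -0.69 and -1.07 for PHO90 and of -1.21 and -1.31 for PHO91. The PHO90 call in CEN.PK 113-7D was lost without any 1 of 3 arrays of that strain (adjusted p of 0.051 to 0.059), and that in YSBN2 in a fit of only its 6 arrays with a replicate block (adjusted p = 0.053). For PHO87, another low-affinity transporter gene, the culture differences were -0.14 (adjusted p = 0.46) and -0.09 (adjusted p = 0.64).

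**Figure D4:**
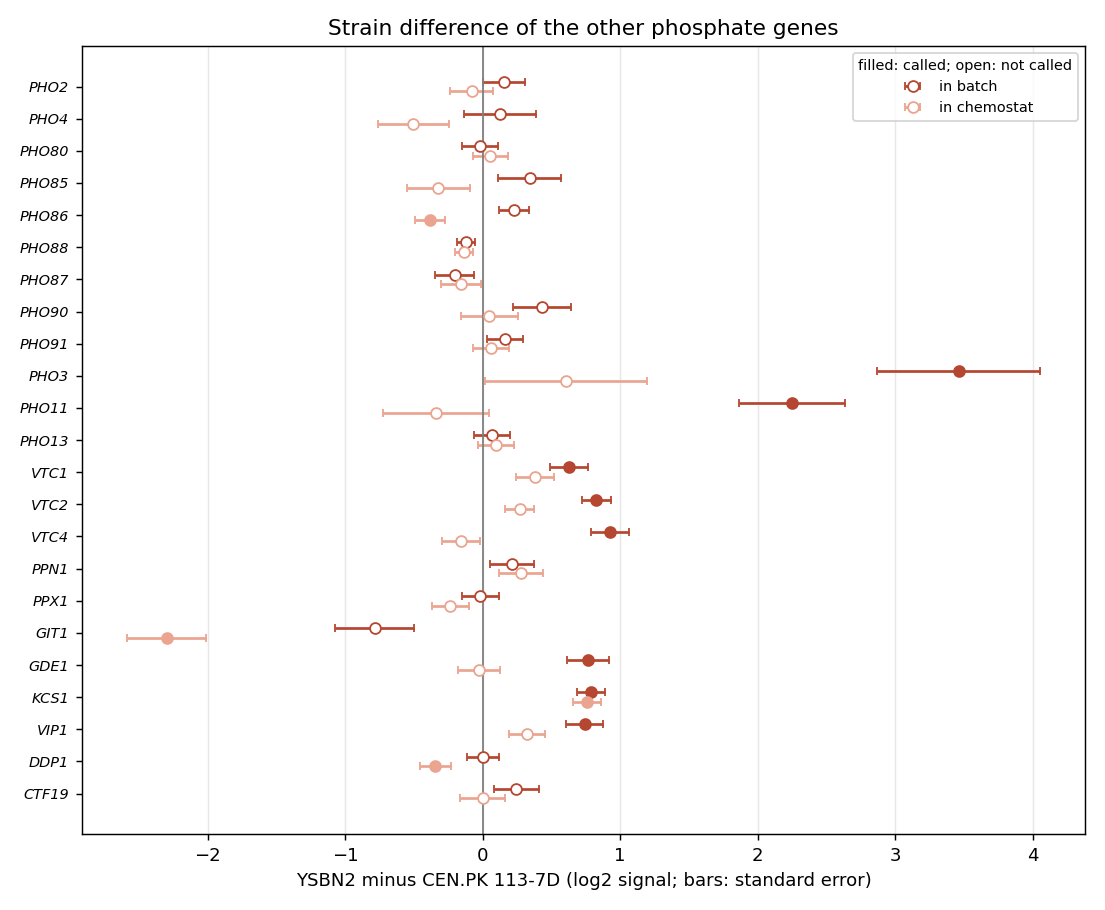
YSBN2 minus CEN.PK 113-7D difference in log2 signal (horizontal axis) of 23 other phosphate genes in batch (dark) and in the chemostat (light), with limma's standard error as bars and filled points for differences past the test. PHO3 (3.46) and PHO11 (2.25) lie farthest to the right in batch, and GIT1 (-2.30) farthest to the left in the chemostat.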

How the data were processed

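Total RNA of 12 cultures was measured on Affymetrix arrays, per the labels. The authors deposited log2 signals for 5716 probe sets; R 2.6, RMA and affy are named in the submitters' processing notes, without settings, and the log base was read from the range of the values. No deposited column was left unused (0). The model was limma's lmFit (version 3.58.1, R 4.3.3) with a mean for each of the 4 groups, fitted to the 12 arrays together, then eBayes (8 residual and 1.34 prior degrees of freedom), 5 contrasts, and two-sided p-values adjusted by Benjamini-Hochberg over all 5716 probe sets. "Called" or "passed" means an adjusted p under 0.05. Errors of differences are limma's standard errors, those of levels SDs, and precision is limited by having 3 arrays in a group. The fit was tested on simulated data.

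The 10 genes, the other lists, the tests and the alternatives were chosen with earlier results of these data known. Named are the 10 genes, a list of other phosphate genes, label checks (HO, HXT1, ADH2 and HXT2), and the 5 named genes most like PHO84. Each comparison was also recomputed with arrays set to a common median or quantile normalized, with values under 6 raised to 6, without dim probe sets, with a single probe set for a gene, with array weights, with a trend and robust eBayes, with a replicate block, on only the arrays compared, and leaving out each array. Results under these alternatives were kept for all comparisons of the 10 genes, but only for some comparisons of the other phosphate genes. A list is described by its counts and median, with no test. Symbols come from the platform annotation, and neighbours from the RefSeq table of assembly R64. Probe sets with the suffix s_at, such as that of PHO11, may read near-identical genes. Promoter sequences were not analysed here. Replicate numbers name no shared day in the labels. After group means were removed, arrays with the same number correlated at 0.50, 0.28 and 0.31 between the CEN.PK 113-7D cultures, so their numbers may pair these arrays, a hint from the values and not from the labels. The differences printed come from the fit without a replicate block, and the block was an alternative. For culture in YSBN2 these correlations were 0.087, -0.17 and 0.045, and for strain in batch 0.16, 0.0027 and 0.15. For strain in the chemostat they were mixed, at 0.60, -0.098 and 0.20. Whether the numbers pair the arrays of these comparisons is not settled by such values.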

Additional observations from a re-analysis of the deposited data

Results flagged for a closer look

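The culture effect (chemostat minus batch) differed between the strains, by limma's test of the difference itself, for VTC3 (-1.85), PHO8 (-1.71) and PHM8 (-1.17), as YSBN2 minus CEN.PK 113-7D on the log2 scale. Of all probe sets 15.4% passed this test, and the PHM8 call depended on the settings. The same difference was -16.15 for PHO84 and -9.64 for SPL2, given as descriptions, since their fall in YSBN2 was known when the genes were listed. For PHO84 the effect was positive in CEN.PK 113-7D and negative in YSBN2, for PHM8 it was positive in both, and for VTC3, PHO8 and SPL2 the effect in CEN.PK 113-7D did not pass the test on the deposited values.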

How the results depend on the processing

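Of 1060 recomputed differences of the 10 genes, 988 kept their direction and side of the threshold, 19 lost a call, 21 gained one and 32 reversed, of which 0 had been called. Reversals with a common array median were PHO81 (-0.095), SPL2 (-0.19) and VTC3 (-0.24) for culture in CEN.PK 113-7D, SPL2 in the chemostat (0.043) and PHO5 in the difference of effects (0.15). With quantile normalization they were PHO81 (-0.15), SPL2 (-0.49) and VTC3 (-0.17) for culture in CEN.PK 113-7D, PHO89 (-0.28) and PHM8 (-0.033) in batch, and PHM6 in the difference of effects (0.049). With array weights, whose iteration stopped before its tolerance, they were PHO5 (0.0014) and VTC3 (-0.021) for culture in CEN.PK 113-7D and PHO89 in batch (-0.62). Leaving out each array in turn, the differences that reversed ran from -0.0078 to 0.0087 (PHO5) and -0.038 to 0.12 (VTC3) for culture in CEN.PK 113-7D, -0.23 to 0.15 (PHO5) for culture in YSBN2, -0.32 to 1.19 (PHO89) in batch, -0.084 to 0.085 (SPL2) in the chemostat, and -0.23 to 0.15 (PHO5) and -0.70 to 0.068 (PHM6) in the difference of effects. Without the 25% or the 50% dimmest probe sets 3 of the 10 genes (PHO8, PHO81 and VTC3) were tested, and the calls in the 5 comparisons were 0, 2, 3, 1 and 2. A common array median moved the median of all probe sets by -0.28 for culture in CEN.PK 113-7D and -0.13 for culture in YSBN2. With the replicate block over 12 arrays no count of calls among the 10 genes changed by over 1.5 times. With the replicate block within the 6 arrays compared, calls in batch fell from 7 to 4, losing PHO8 (adjusted p = 0.066), PHO81 (0.13) and VTC3 (0.074), and PHM8 (0.051) and PHM6 (0.058) lost theirs in the chemostat. PHO81 (0.048) and PHM7 (0.034) gained calls in that chemostat fit, so the count there stayed at 6. Of the 8 other phosphate genes called in batch, PHO11 (0.089), VTC1 (0.11), VTC2 (0.054), VTC4 (0.057), GDE1 (0.1) and VIP1 (0.072) lost theirs. No gene had another probe set to try. Near the floor signal over background limits every size, and the cause of each change was not tested.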

Other observations

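Among the listed phosphate genes, 5 act in inositol pyrophosphate turnover or glycerophosphodiester use, and they are given here by value, with no statement about the groups. KCS1, an inositol hexakisphosphate kinase gene, was higher in YSBN2 by 0.79 ± 0.10 in batch (limma, adjusted p = 4.1e-04) and by 0.76 ± 0.10 in the chemostat (adjusted p = 6.7e-04). VIP1, which encodes the other kinase of that route, was higher in YSBN2 batch by 0.74 ± 0.13 (adjusted p = 0.0027, or 0.072 in a fit of only these 6 arrays with a replicate block). DDP1, which encodes a phosphatase of inositol pyrophosphates, rose in the chemostat by 0.88 ± 0.11 in CEN.PK 113-7D (adjusted p = 1.3e-04) and by 0.54 ± 0.11 in YSBN2 (adjusted p = 0.0032). GDE1, a glycerophosphodiesterase gene, rose in both chemostats, by 1.59 ± 0.15 in CEN.PK 113-7D (adjusted p = 1.8e-05) and 0.79 ± 0.15 in YSBN2 (adjusted p = 0.0018). GIT1, the glycerophosphoinositol transporter gene, read 4.58, 4.00 and 4.88 in the CEN.PK 113-7D chemostat and at most 3.33 in the 9 other arrays, all near the floor, and its differences were 0 with values under 6 raised to 6. Culture comparisons called 56.1% and 52.6% of all probe sets in CEN.PK 113-7D and YSBN2.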
